A study of Mus musculus with 6 samples.

Results

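The Hox family and 3 genes of limb identity were followed in skeletal muscle of *FLExDUX4* mice and their wild-type littermates. The genes were chosen by name, as all 39 mouse genes of the 4 Hox clusters (*Hoxa*, *Hoxb*, *Hoxc* and *Hoxd*) together with *Tbx4*, *Tbx5* and *Pitx1*, which makes 42 of the 52550 genes in the deposited table. The *FLExDUX4* group held 3 male mice carrying 1 copy of human *DUX4* at the *Rosa26* locus, placed backwards between lox sites. No Cre was present in either group, and the transgene is known to be transcribed at a low level without it, which makes the mice a mild model of facioscapulohumeral muscular dystrophy. The wild-type group (WT in the plots) held 3 male littermates without the transgene. According to the labels the muscle was quadriceps and the mice were 13 weeks old, whereas the methods of the study give triceps of 2-month-old males for RNA sequencing.

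Hox genes encode homeodomain transcription factors. They lie in 4 clusters, and genes at the same place in different clusters form 1 of 13 paralog groups. Low-numbered groups are used toward the head and high-numbered groups toward the tail and the tip of the limb. The genes of each cluster are switched on in their order along the chromosome, and adult muscle and connective tissue keep part of the pattern of their place of origin. *Tbx5* acts in the forelimb field, while *Tbx4* and *Pitx1* act in the hindlimb field. In the limb buds, the 5′ *Hoxc* genes from *Hoxc9* onward mark the hindlimb and *Hoxc4* to *Hoxc6* are active in the forelimb.

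Sequencing used QuantSeq, which reads the 3′ end of polyadenylated RNA and gives about 1 read per transcript, so that counts were compared between genes without dividing by length. The 2 deposited columns named for the genotypes, read as group totals of 3 mice each, held 13110125 counts on genes in *FLExDUX4* muscle against 18367364 in wild type. Levels are given as CPM, the counts of a gene scaled to a common library size, after TMM scaling, with exact 95% Poisson intervals. Differences are log2 ratios of *FLExDUX4* over wild type with 95% Clopper-Pearson intervals. Both kinds of interval cover counting error only. Values of single mice were not used because the names of their columns match no labelled sample, so no difference below was tested against the spread between mice. In whole muscle, fewer cells of a type and less RNA per cell cannot be told apart.

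Hox transcripts were rare but clearly present in adult muscle of both groups. Together the 39 Hox genes had 1471 counts in *FLExDUX4* muscle against 2349 in wild type, or 113.4 and 126.6 CPM. Of the 39 genes, 18 had at least 20 counts over both groups together, 8 had 1 to 19 and 13 had none in either group. The *Hoxa* cluster was the most widely detected, with 8 of 11 genes at 20 counts or more, against 4 of 10 for *Hoxb*, 3 of 9 for *Hoxc* and 3 of 9 for *Hoxd*. The 5 leading genes, 4 of them from *Hoxa*, came in the same order in both groups, namely *Hoxa9*, *Hoxd8*, *Hoxa5*, *Hoxa10* and *Hoxa7*. They held 66.08% of all Hox counts in *FLExDUX4* muscle against 67.26% in wild type.

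**Figure D1:**
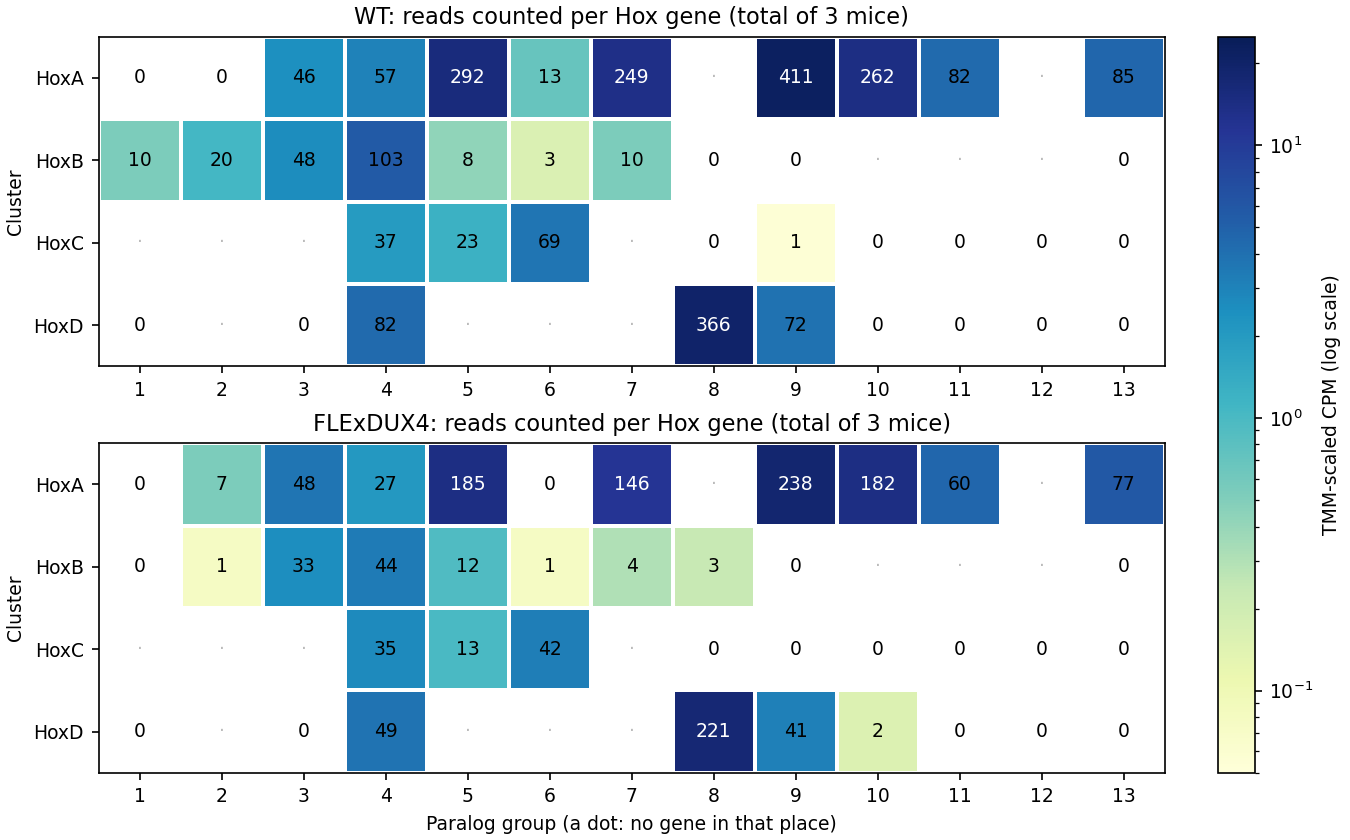
Read counts of the 39 Hox genes by cluster (rows) and paralog group (columns) in the wild-type (top) and *FLExDUX4* (bottom) totals, coloured by TMM-scaled CPM on a log scale. Counts run from 0 to 411 (*Hoxa9*, wild type), and *Hoxc8* to *Hoxc13* and *Hoxd10* to *Hoxd13* hold at most 2 counts in either group.

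The promoters of a leading gene and of a contrasting pair from 1 paralog group are shown because the family's levels split by cluster as well as by paralog group. *Hoxd8* was among the leading genes with 221 and 366 counts. *Hoxa13* and *Hoxd13* belong to the same paralog group, but *Hoxa13* had 77 and 85 counts and *Hoxd13* had 0 in both groups. Each sequence is the 250 bases before the RefSeq start site on GRCm38.p6, written 5′ to 3′ on the gene's strand, with every CG dinucleotide in capitals. *Hoxd8* lies at chr2:74704365-74704614 on the plus strand, *Hoxa13* at chr6:52260881-52261130 on the minus strand and *Hoxd13* at chr2:74667975-74668224 on the plus strand.
Hoxd8: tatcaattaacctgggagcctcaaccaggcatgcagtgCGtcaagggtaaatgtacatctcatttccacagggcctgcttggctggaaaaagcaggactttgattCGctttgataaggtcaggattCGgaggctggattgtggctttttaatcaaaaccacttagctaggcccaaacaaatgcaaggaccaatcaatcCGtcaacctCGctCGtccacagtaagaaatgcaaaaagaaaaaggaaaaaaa
Hoxa13: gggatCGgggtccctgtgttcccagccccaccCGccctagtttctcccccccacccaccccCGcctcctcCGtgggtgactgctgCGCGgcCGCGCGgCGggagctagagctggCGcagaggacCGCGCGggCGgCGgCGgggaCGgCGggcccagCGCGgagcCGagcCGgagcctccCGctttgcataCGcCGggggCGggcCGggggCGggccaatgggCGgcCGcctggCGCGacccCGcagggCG
Hoxd13: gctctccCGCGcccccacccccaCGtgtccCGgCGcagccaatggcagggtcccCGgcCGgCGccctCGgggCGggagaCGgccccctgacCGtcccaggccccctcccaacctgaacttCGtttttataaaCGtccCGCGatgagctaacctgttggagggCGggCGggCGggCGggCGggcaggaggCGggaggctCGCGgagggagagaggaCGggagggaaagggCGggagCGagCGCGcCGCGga

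These windows held 6 CG dinucleotides for *Hoxd8*, 35 for *Hoxa13* and 31 for *Hoxd13*, so that the detected and the undetected member of paralog group 13 were both rich in CG. RefSeq promoters of 300 bases (250 before to 50 after the start) were matched by symbol for 23 of the 42 genes, giving 25 promoters. Over all 32851 promoters of that length the median was 7 CG, with quartiles of 3 and 20. Over the 25 promoters of Hox and limb identity genes the median was 14. The 14 promoters of genes with at least 20 counts had a median of 13 (range 4 to 45), and the 6 promoters of genes with 0 counts a median of 22.5 (range 4 to 37). The TATA element TATAAA, searched on both strands, was found in 5 of the 25 promoters and in 13.6% of all promoters. The Hox and Pbx half-site pair TGATNNAT, also searched on both strands, was found in 4 of the 25 and in 8.85% of all. These matches describe letters in the window and are not evidence of binding.

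*Hoxa9*, a posterior Hox gene on chromosome 6 of GRCm38 (52223100 to 52231089, minus strand), was the highest member. It had 238 counts in *FLExDUX4* muscle against 411 in wild type, levels of 18.3 CPM (interval 16.1 to 20.8) and 22.1 CPM (interval 20.1 to 24.4). *Hoxd8*, on chromosome 2 (74704615 to 74707933), came next with 17.0 CPM and 19.7 CPM. The intervals of these 2 genes overlapped within each group, so their order was not separated at this depth. *Hoxa9* ranked 4169 among all genes by counts in *FLExDUX4* muscle against 3613 in wild type.

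*Hoxa5*, *Hoxa10* and *Hoxa7* followed. *Hoxa5* had 185 and 292 counts (14.3 and 15.7 CPM in *FLExDUX4* and wild-type mice). *Hoxa10* had 182 and 262 (14.0 and 14.1 CPM). *Hoxa7* had 146 and 249 (11.2 and 13.4 CPM). In wild-type mice the intervals of these 3 genes overlapped each other and lay below that of *Hoxd8*. In *FLExDUX4* mice the intervals of *Hoxa5* and *Hoxa10* overlapped that of *Hoxd8*, and that of *Hoxa7* lay below it.

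Past these 5 genes, levels dropped to 6 CPM or less in both groups. *Hoxb4*, on chromosome 11 (96318267 to 96321638), was the highest *Hoxb* gene with 44 and 103 counts, and *Hoxd4* had 49 and 82. *Hoxa13*, the Hox gene of the hand and foot plate in the embryo, had levels of 5.93 CPM (interval 4.68 to 7.42) in *FLExDUX4* muscle against 4.58 CPM (interval 3.66 to 5.66) in wild type. It was the only gene of paralog group 13 with a count. *Hoxa11*, needed for the middle segment of the limb, was likewise the only detected gene of group 11, with 60 and 82 counts.

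The remaining genes with at least 20 counts came from groups 2 to 6 and from *Hoxd9*. *Hoxa3* had 48 and 46 counts, *Hoxa4* had 27 and 57, *Hoxb3* had 33 and 48 and *Hoxd9* had 41 and 72. *Hoxb5* had 12 and 8, *Hoxc4* 35 and 37, *Hoxc5* 13 and 23 and *Hoxc6* 42 and 69, in each case *FLExDUX4* first. *Hoxb2* had 1 and 20. Detected genes thus came from all 4 clusters at group 4, but from *Hoxa* alone at groups 11 and 13.

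Genes under 20 counts fell into 2 sets. In *Hoxa2*, *Hoxa6* and *Hoxb1* only 1 group had counts above 3, the number taken as the limit of a count of 0. *Hoxa2* had 7 counts in *FLExDUX4* muscle against 0 in wild type, at least 3.34-fold higher with the zero set at that limit. *Hoxa6* had 0 and 13 counts, at least 3.03-fold lower in *FLExDUX4* mice, and *Hoxb1* had 0 and 10, at least 2.33-fold lower. These folds leave out the counting error of the group with reads. Whether 1 of the 3 mice in a group supplied these reads was not examined. *Hoxb7* had 4 and 10 counts, and *Hoxb6*, *Hoxb8*, *Hoxc9* and *Hoxd10* had at most 3 in either group. A level of 3 counts was 0.231 CPM in *FLExDUX4* muscle against 0.162 CPM in wild type, and the 13 genes at 0 in both groups may be transcribed below it.

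The zeros of *Hoxd3* and *Hoxd11* are less certain than the others. In the GENCODE M21 annotation, a later release than the one used for counting, *Hoxd3* shares 62.3% of its exonic bases with *Hoxd4* and *Gm28230*, and 4 of its 6 transcript ends lie mostly in the shared part. *Hoxd4* shares 52.3%. *Hoxd11* shares 10.8% with *Gm28309*, including 1 of 2 transcript ends. *Gm28230* and *Gm28309* themselves had 0 counts, and reads in shared bases may have been assigned to neither gene. No exonic base is shared on the same strand by 32 of the 42 genes, *Hoxc8*, *Hoxc9* and *Hoxc11* to *Hoxc13* included, and *Hoxc10* shares only bases away from its transcript end.

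The Hox profile was next compared between mice with and without the transgene, whose own reads were not analysed here. At 1.5-fold, 1 of the 18 compared Hox genes was higher in *FLExDUX4* mice and 2 were lower. Among all 12917 genes with at least 20 counts, 12.1% were 1.5-fold higher and 12.3% were lower. Among the 9110 genes with 20 to 649 counts, the range of the Hox genes, these shares were 16.6% and 17.2%. With a minimum of 10 counts in place of 20, 5 of 21 Hox genes were lower and 1 was higher, against 20.5% and 19.2% of genes with 10 to 649 counts. The counting interval lay above 0 for none of the 18 Hox genes and below 0 for 3, against 19.0% above and 18.9% below in the same count range.

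The higher gene was *Hoxb5*, but its log2 ratio of 1.07 (interval -0.31 to 2.60) rested on 12 and 8 counts and its interval included 0. The lower genes were both from *Hoxb*. *Hoxb4*, active in blood stem cells and in the anterior trunk, had levels of 3.39 CPM (interval 2.46 to 4.55) in *FLExDUX4* muscle against 5.55 CPM (interval 4.53 to 6.73) in wild type, a ratio of -0.70 (interval -1.25 to -0.19). *Hoxb2*, a hindbrain patterning gene on chromosome 11 (96350525 to 96354012), had 1 and 20 counts, which gave a ratio of -3.26 (interval -9.18 to -1.16). The third gene with an interval below 0 was *Hoxa9*, with a small ratio of -0.27 (interval -0.51 to -0.04).

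**Figure D2:**
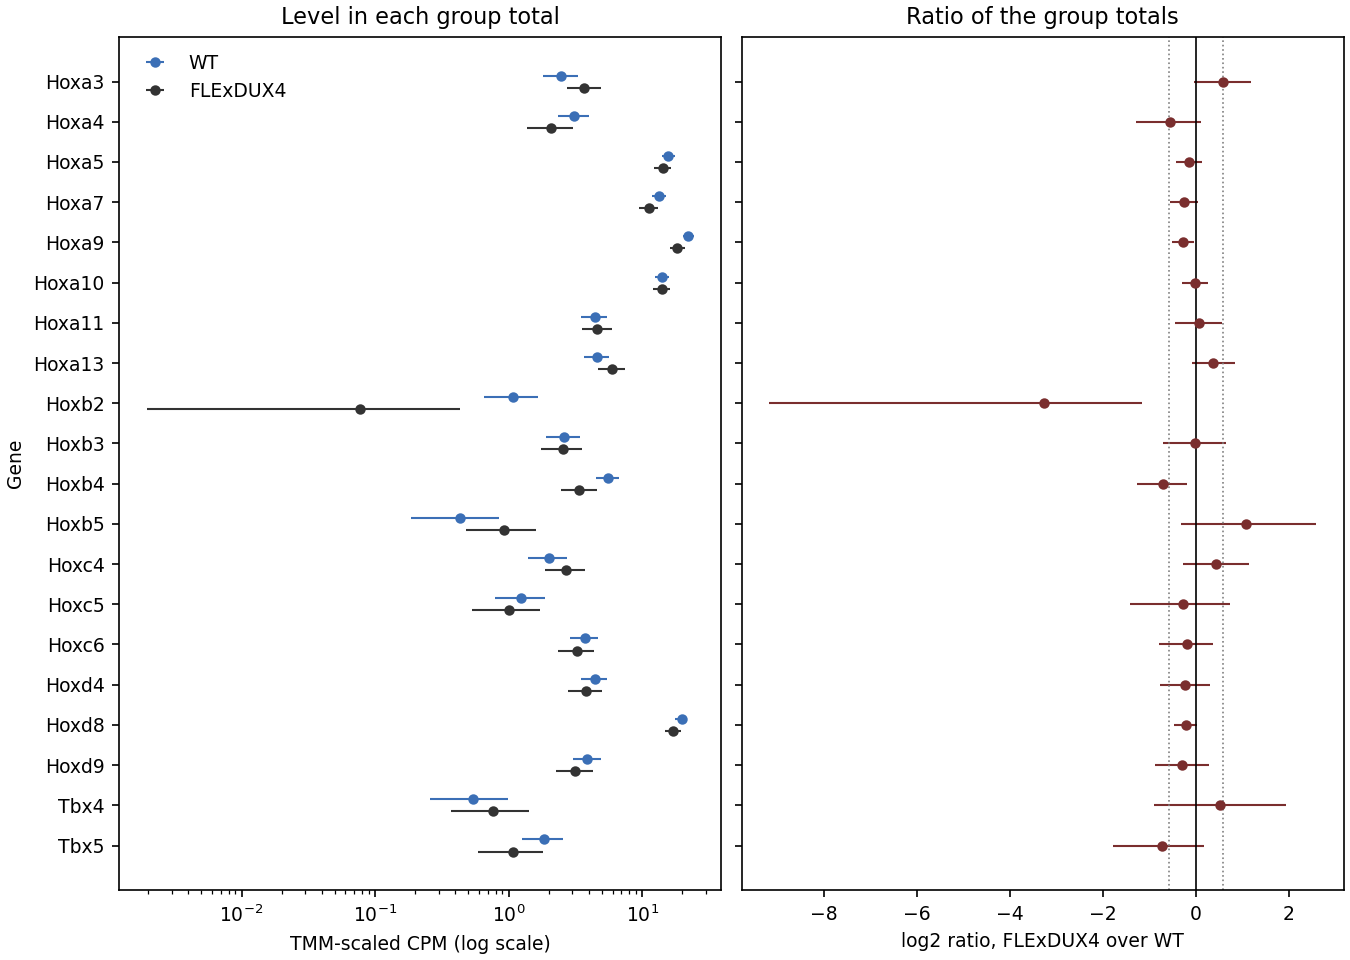
Left, TMM-scaled CPM (log scale) of the 20 genes with at least 20 counts in each group total, with 95% Poisson intervals. Right, log2 ratio of *FLExDUX4* over wild type with 95% Clopper-Pearson intervals; dotted lines mark 1.5-fold, and the intervals of *Hoxb4*, *Hoxb2* and *Hoxa9* lie below 0.

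The other 15 compared Hox genes had intervals that included 0. Their estimates were below 0 more often than above, so that over all 18 genes 13 had a ratio below 0 and 5 above, with a median of -0.20. In the same count range 4562 of 9110 genes were below 0 and the median was 0.00. The median size of the ratio, whatever its sign, was 0.28 for the Hox genes and 0.38 for genes in that range. *Hoxa10* had a ratio of -0.01 (interval -0.29 to 0.27), *Hoxa5* of -0.14 (interval -0.42 to 0.13) and *Hoxd8* of -0.21 (interval -0.46 to 0.03). *Hoxa3*, with a ratio of 0.58 (interval -0.04 to 1.19), and *Hoxa13*, with 0.38 (interval -0.09 to 0.84), were on the higher side.

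Scaling to the added spike-in RNA in place of TMM shifts every gene by -0.28 on the log2 scale, so ratios between 0 and 0.28 change sign with it. Under that scaling 1 Hox gene was 1.5-fold higher and 3 were lower, and of all 12917 genes 874 were higher and 2927 lower. The counting interval was below 0 for 8 of the 18 Hox genes and for 3303 of the 9110 genes in their count range, and above 0 for 0 and 813. Relative to other genes the Hox values are the same under both.

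By cluster, summed counts differed little in their distribution between the groups. *Hoxa* held 65.9% of Hox counts in *FLExDUX4* muscle against 63.7% in wild type, and *Hoxd* held 21.3% and 22.1%. *Hoxb* held 6.66% (interval 5.44 to 8.06) and 8.60% (interval 7.50 to 9.81), and *Hoxc* 6.12% and 5.53%. In each cluster the 2 groups' intervals overlapped.

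Set against the whole library, the ratio of summed levels was -0.52 (interval -0.89 to -0.17) for *Hoxb*, from 98 and 202 counts. It was -0.22 (interval -0.42 to -0.01) for *Hoxd*, -0.11 (interval -0.23 to 0.01) for *Hoxa* and -0.01 (interval -0.42 to 0.38) for *Hoxc*. All 39 genes together gave -0.16 (interval -0.25 to -0.06). Without its highest gene, the ratio was -0.35 for *Hoxb*, -0.22 for *Hoxd*, -0.05 for *Hoxa* and 0.17 for *Hoxc*. Within *Hoxb*, levels of *Hoxb4*, *Hoxb2* and *Hoxb1* were lower in *FLExDUX4* muscle and that of *Hoxb5* was higher, while *Hoxb3*, with a ratio of -0.02 (interval -0.71 to 0.65), had similar levels of 2.54 and 2.59 CPM.

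**Figure D3:**
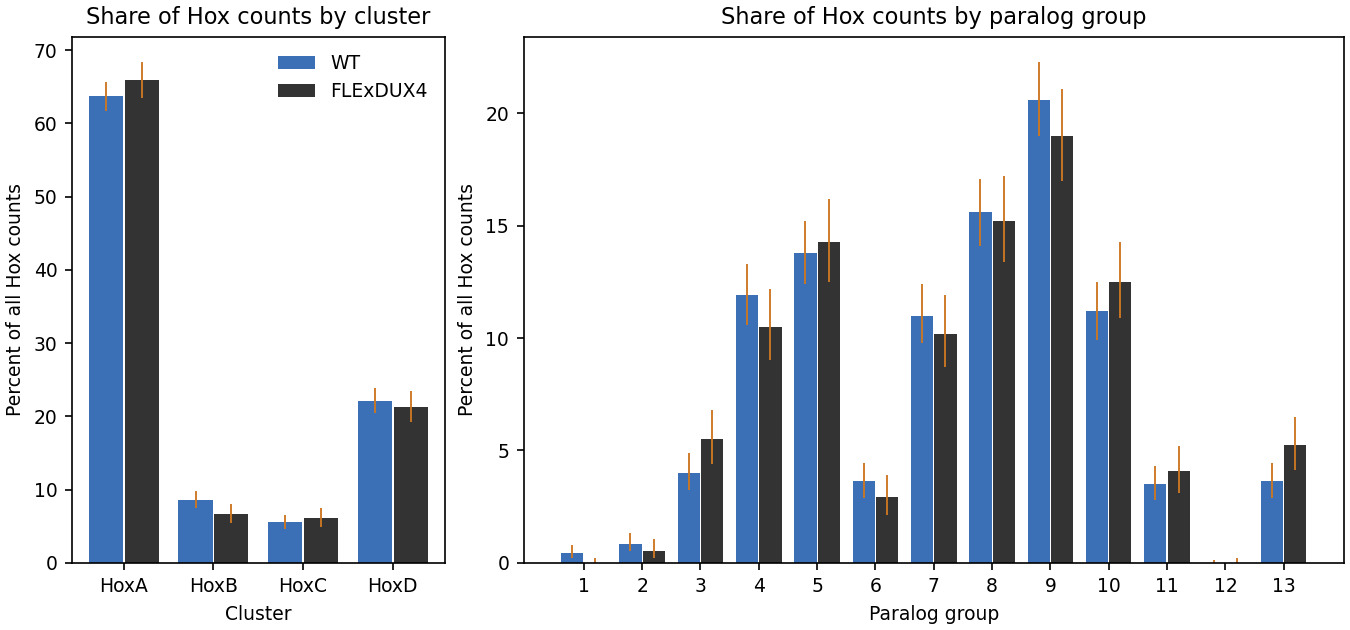
Percent of all Hox counts held by each cluster (left) and each paralog group (right) in wild-type and *FLExDUX4* totals, with 95% Clopper-Pearson intervals as orange lines (for 0 counts, up to the limit of 3 counts). Both groups peak at paralog group 9, with 20.6% in wild type and 19.0% in *FLExDUX4*, and hold no count in group 12.

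By paralog group, both profiles peaked at group 9 and were low at groups 1 to 3, 6 and 11 to 13. Group 9 was the highest, with 279 and 484 counts, and group 8, nearly all of it *Hoxd8*, had 224 and 366. Group 5 had 210 and 323 and group 10 had 184 and 262, whereas group 1 had 0 and 10 and group 12 had none. Ratios were below 0 with intervals that left out 0 in groups 4 and 9, at -0.33 (interval -0.62 to -0.04) and -0.28 (interval -0.50 to -0.06). Without *Hoxb4*, its highest gene, group 4 had a ratio of -0.15. Group 13 had a ratio of 0.38 (interval -0.09 to 0.84), and group 3 of 0.30 (interval -0.14 to 0.75), which was -0.02 without *Hoxa3*. Group 10 had a ratio of 0.01 (interval -0.27 to 0.28), which is below 0 when totals are scaled by upper quartile, by gene totals, by spike-ins or with no filter.

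The limb identity genes were few in reads in both groups. *Tbx5*, the forelimb gene (chromosome 5, 119832668 to 119885219), had 14 counts in *FLExDUX4* muscle against 34 in wild type, or 1.08 CPM (interval 0.59 to 1.81) and 1.83 CPM (interval 1.27 to 2.56). Its ratio of -0.73 passed 1.5-fold, but the interval (-1.78 to 0.17) included 0. *Tbx4*, its hindlimb counterpart (chromosome 11, 85886422 to 85916097), had 10 counts in each group and a ratio of 0.52 (interval -0.90 to 1.94). *Pitx1*, which directs hindlimb identity (chromosome 13, 55825051 to 55836192), had 0 counts in *FLExDUX4* muscle against 1 in wild type, which sets its level at no more than 0.231 CPM and 0.300 CPM.

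The *Hoxc* cluster split in the same place in both groups. *Hoxc4* to *Hoxc6* had 90 counts in *FLExDUX4* muscle against 129 in wild type, levels of 6.94 and 6.95 CPM. *Hoxc8* to *Hoxc13* had 0 and 1. In *FLExDUX4* mice 0 of 1471 Hox counts fell on these 6 genes, which allows a share of up to 0.204%. *Pitx1* and each 5′ *Hoxc* gene thus had 0 or 1 counts, beside counts on *Tbx5* and *Hoxc4* to *Hoxc6*. *Tbx4* was detected at a low level in both groups, with 10 counts in each, against 14 and 34 for *Tbx5*. The pattern was alike in both totals, and whether it held in each mouse was not examined. The quadriceps named in the labels is a hindlimb muscle, and the triceps named in the methods is a forelimb muscle. Which of them was sampled was not tested, as no muscle of known limb was there for comparison.

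**Figure D4:**
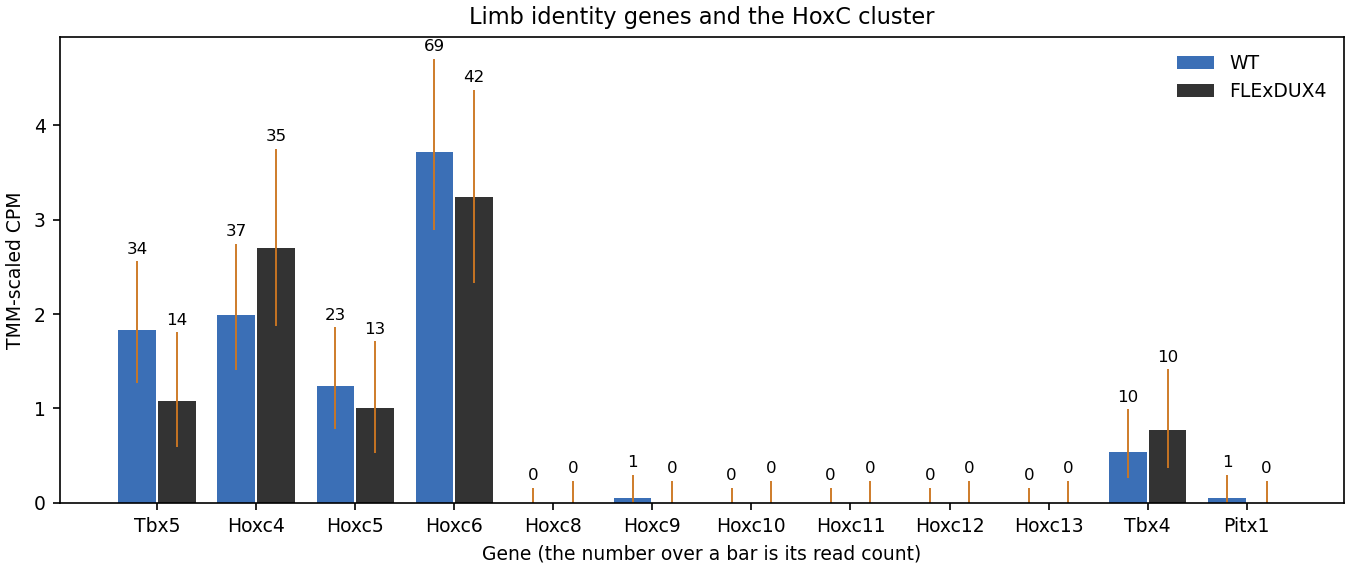
TMM-scaled CPM of *Tbx5*, the *Hoxc* genes, *Tbx4* and *Pitx1* in wild-type and *FLExDUX4* totals, with 95% Poisson intervals as orange lines (for 0 counts, up to the limit of 3 counts) and the read count over each bar. *Hoxc4* to *Hoxc6* hold 13 to 69 counts per group, whereas *Hoxc8* to *Hoxc13* and *Pitx1* hold 0 or 1.

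Among 9 TALE cofactors, the homeodomain partners that bind DNA with Hox proteins, 8 had at least 20 counts. None was 1.5-fold higher and 1 was lower, against 12.1% and 12.3% of all compared genes, and the median ratio was -0.12. *Meis2*, which marks the proximal limb, had 25 and 63 counts and a ratio of -0.80 (interval -1.55 to -0.13). *Pknox2* and *Pknox1* had ratios of 0.26 and 0.21 with intervals that included 0, and both change sign with spike-in scaling. *Pbx4*, under the minimum of 20, had 2 and 14 counts and a ratio of -2.02 (interval -5.47 to -0.17).

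Of 16 noncoding genes within the clusters, 10 had no counts, *Hotair*, *Hottip* and all 6 microRNA genes included. *Hoxd3os1* had 56 and 77 counts and *Hoxb3os* 34 and 32. *Hoxb3os* was past 1.5-fold with a ratio of 0.60 (interval -0.14 to 1.35). *Hoxa11os*, antisense to *Hoxa11*, was lower, with 10 and 37 counts and a ratio of -1.32 (interval -2.54 to -0.34), while *Hoxa11* itself had a ratio of 0.07 (interval -0.44 to 0.56), below 0 with spike-in scaling. *Hoxaas3*, also under the minimum, had 12 and 1 counts, a ratio of 3.58 (interval 1.35 to 9.52). Whether counting used strand is not given in the sources used here, so reads of antisense pairs cannot be told apart with certainty.

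All 22 chromatin regulators of Hox genes, members of the Polycomb and Trithorax systems, had at least 20 counts. Of these, 3 were 1.5-fold higher and 1 was lower, with a median of -0.10, beside 12.1% and 12.3% of all compared genes. *Kdm6b*, a demethylase of the Polycomb mark H3K27me3, had 229 and 208 counts and a ratio of 0.66 (interval 0.38 to 0.93). *Men1*, a partner of the Kmt2 methyltransferases, had a ratio of 0.62 (interval 0.17 to 1.07). *Ring1* was lower at -0.65 (interval -1.37 to 0.02). The regulators with most counts had smaller ratios, with *Ash1l* at -0.08 (interval -0.18 to 0.02), *Kmt2a* at -0.18 (interval -0.30 to -0.05), *Jarid2* at -0.32 (interval -0.47 to -0.17) and *Ctcf* at -0.14 (interval -0.31 to 0.04).

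Of 24 further genes of limb field and patterning, 10 had no counts in either group, *Shh*, *Fgf8* and *Isl1* among them. Of the 10 with at least 20 counts none was 1.5-fold higher and 3 were lower, with a median of -0.39. Of all compared genes 12.1% were higher and 12.3% lower, and of those in the Hox count range 16.6% and 17.2%. *En1*, a homeobox gene of the ventral limb, had 72 and 240 counts, or 5.55 and 12.9 CPM, and a ratio of -1.21 (interval -1.62 to -0.84). *Gli3*, a Hedgehog pathway transcription factor, had 22 and 92 counts and a ratio of -1.52 (interval -2.29 to -0.86). *Tbx2* was at -0.76 (interval -1.76 to 0.11). Among the genes with most counts were *Tbx15*, at -0.18 (interval -0.28 to -0.09), *Lbx1*, which guides migrating limb muscle precursors, at -0.28 (interval -0.39 to -0.18), and *Meox2* at -0.50 (interval -0.83 to -0.18). *Tbx3* was on the higher side, with 133 and 141 counts and a ratio of 0.43 (interval 0.08 to 0.78), and *Shox2* and *Gdf11* were near 0, at -0.06 and -0.01.

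Markers of cell types were read next, and none of them was chosen to tell quadriceps from triceps. All 8 skeletal muscle markers were present in both groups, with summed levels in a ratio of -0.005 (interval -0.008 to -0.002). Fibroblast markers, with 6 of 6 detected, had a ratio of 0.14 (1254 and 1135 CPM), with single genes from 0.01 to 0.53. The 4 endothelial markers had -0.22 (153.3 and 178 CPM) and the 6 satellite cell markers -0.12 (39.5 and 43.0 CPM). Single markers ranged more widely, with *Kdr* at -0.56 (interval -0.70 to -0.42), *Tek* at -0.63 (interval -1.04 to -0.25) and *Pecam1* at 0.06 among the endothelial genes and *Pax7* at -0.82 (interval -1.44 to -0.25) among the satellite cell genes. Blood markers (4 of 4) had a ratio of 0.33 and adipocyte markers (4 of 4) of 0.45, with single genes from -0.82 to 0.70 in the latter. Pericyte, tendon and Schwann cell markers, 4 genes each, had summed ratios between 0.04 and 0.10. Single markers among them went further in both directions, with *Scx* at -1.01 (interval -1.50 to -0.56), *Mkx* at 1.21 (interval 0.21 to 2.30) and *Sox10* at -0.96 (interval -2.29 to 0.12). Of 4 skin markers, *Krt5*, *Krt14* and *Krt15* were at 0 in both groups and *Krt10* had 29 and 78 counts. The part of these differences in the Hox ratios was not tested.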

How the data were processed

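Raw counts per gene were taken from the group-total columns deposited by the authors for 3 *FLExDUX4* and 3 wild-type mice. Per the methods of the study and its processing notes, the authors trimmed QuantSeq 3′ reads with Cutadapt 1.16 and aligned them with STAR 2.5.3a to GRCm38 with spike-in sequences. The notes also name FastQC 0.11.7 and featureCounts 1.6.2. Another 6 columns of single mice matched no label and were not used. The authors' DESeq2 columns (mean, fold change, error, statistic and p-values) were neither used nor compared.

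TMM factors came from edgeR 4.0.16 under R 4.3.3 and used 13396 genes. Counts of genes past 1.5-fold and medians used genes with at least 20 counts over both totals, and the few ratios given below that minimum enter neither. The log2 ratio used a pseudocount of 0.5, and 1.5-fold was the threshold. With only totals there is no replicate test and no p-value. The edgeR and DESeq2 tests planned for single mice were not run. Intervals were computed with scipy 1.17.1 and checked on totals simulated with counting error only, without spread between mice. A count of 0 was given a limit of 3 counts per group.

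The genes and lists were chosen with earlier results of these data known. All 42 were named or counted, with values for those at 20 counts or more. From each other list the 1 to 4 genes with most counts were named, with those past 1.5-fold with an interval that left out 0, and lower-count genes named besides were chosen after their values were seen. Some genes of these lists are not reported here. Promoters came from RefSeq (GRCm38.p6), matched by symbol. Alternatives were other scalings (RLE, upper quartile, gene totals, spike-in totals, no filter), pseudocounts of 0.1 and 2, minimums of 10 and 50 counts, 2-fold, and sums without their highest gene.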

Additional observations from a re-analysis of the deposited data

How the results depend on the processing

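No paired analysis was possible because the columns of single mice carry names that match no label and were not used. For the same reason leaving out each mouse, a replicate block and DESeq2 were not run, so dependence on 1 animal is unknown. Under RLE, upper quartile, gene totals and no filter before scaling, the sums and the 18 compared Hox genes kept their sign. So did *Tbx4*, *Tbx5* and the few other genes tried. The exception was paralog group 10 (0.01), which was below 0 under each but RLE. Other genes with ratios near 0 were not tried. With spike-in totals the ratio was -0.44 for all Hox genes, -0.39 for *Hoxa*, -0.49 for *Hoxd*, and -0.38, -0.47 and -0.55 for paralog groups 5, 8 and 9, and single genes moved alike (*Hoxa9* -0.55, *Hoxd8* -0.49, *Hoxa5* -0.42); the shift of -0.28 shared by every gene is the cause by construction. Paralog groups 10 (-0.27) and 11 (-0.21) and *Hoxa11* (-0.21) were below 0 with it. Without its highest gene the ratio was 0.21 for paralog group 5, -0.02 for group 3 and 0.17 for *Hoxc*, each of the other sign. A pseudocount of 2 put *Hoxb3* at 0.00. The ratio of *Hoxb2*, -3.26 in the main setting, was -2.4 with a pseudocount of 2 and -3.7 with 0.1. The number of Hox genes 1.5-fold higher was 0 in place of 1 at a minimum of 50 counts. The number lower was 5 at a minimum of 10 counts, 1 at a minimum of 50 and 1 at 2-fold, in place of 2; the minimums change how many genes were compared, and at 2-fold *Hoxb4* no longer passed. Depth limits genes under 20 counts, whose levels lie near the limit of a count of 0.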
